A study of Homo sapiens with 17 samples.

Results

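The response of MV-4-11 cells to D9 was taken from 2 of the 17 arrays of the series, an untreated culture and a culture given 1 µM D9 for 48 h, both chosen by the cell line named in their titles. D9 is an analog of 3-deazaneplanocin A, a compound that inhibits S-adenosylhomocysteine hydrolase, the enzyme that clears the by-product of cellular methylation reactions. The series measured messenger RNA on Illumina HT-12 V4 bead arrays in 6 human acute myeloid leukaemia (AML) cell lines, each untreated and at 1 µM, and 5 of them also at 5 µM. MV-4-11 had no array at 5 µM and no repeat array, so its change is 1 treated array minus 1 untreated array. It was read against the 1 µM changes of TF-1, THP-1, Mono-Mac-1, KG-1a and MOLM-14, each with 3 arrays and treated for the same 48 h. The labels name the cytokine IL-3 as an addition to the medium of TF-1 and of no other line. The series' design text places MV-4-11, MOLM-14 and TF-1 among the sensitive lines.

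MV-4-11 is a myelomonocytic leukaemia line in which the KMT2A gene is fused to AFF1, and it carries the FLT3-ITD mutation, an internal duplication that keeps the receptor kinase FLT3 active. As background, cells that enter S phase raise a set of replication genes through E2F transcription factors, and cells that approach mitosis raise a second set through the MuvB complex, B-MYB, FOXM1 and NF-Y. In myeloid cells MHC class II molecules present peptides to T cells, and CD74, the invariant chain, guides them to the endosome. Being a single line grown in culture, MV-4-11 stands for 1 leukaemia clone, and in a bulk sample fewer cells of a kind and less RNA per cell cannot be told apart.

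The untreated array was checked against markers of its labelled cell type. Of 10 listed markers of KMT2A-rearranged myelomonocytic cells 7 were measured. All 7 lay above the 75th percentile of the array, from 8.21 to 14.11 on the log2 scale, with LYZ, which encodes lysozyme, as the highest. FLT3 read 10.29 and the HOXA partner MEIS1 9.76. The median of the 7 was 10.29, beside 10.22 (Mono-Mac-1), 9.81 (MOLM-14), 8.68 (THP-1), 7.76 (TF-1) and 6.14 (KG-1a). The check therefore does not tell MV-4-11 from Mono-Mac-1 or MOLM-14. Median levels of the B lymphoid, T and NK cell, erythroid and stromal lists were 5.93 to 6.17 untreated and that of the megakaryocyte list 6.5, near the level of 6.16 that a probe had to pass to be tested, and 6.07 to 6.56 after D9. Over the 28394 tested probes the MV-4-11 arrays had a correlation of 0.979 with each other and at most 0.956 with an array of another line. Their raw medians, 54.5 untreated and 53.9 treated, were at the low end of the 53.9 to 67.4 of the series.

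At 1 µM MV-4-11 had more probes changed at least 2-fold than any other line. There were 251 probes at least 2-fold higher (0.884% of those tested) and 395 at least 2-fold lower (1.39%). This is a count by size, with no test. THP-1 came next with 160 higher and 237 lower, followed by Mono-Mac-1 with 150 and 88, TF-1 with 58 and 36, MOLM-14 with 25 and 21, and KG-1a with 18 and 16. Between the 5 and the 1 µM arrays of the same line, a pair in which both cultures were treated, 4 to 59 probes differed 2-fold in the other 5 lines. Between the 5 µM and the untreated arrays the counts were larger. They were 782 (Mono-Mac-1), 423 (THP-1), 348 (TF-1), 288 (MOLM-14) and 122 (KG-1a). The 646 of MV-4-11 at 1 µM were thus fewer than those of Mono-Mac-1 at 5 µM, a dose not measured in MV-4-11. With median scaling in place of quantile normalization the split in MV-4-11 was 130 higher and 669 lower.

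**Figure D1:**
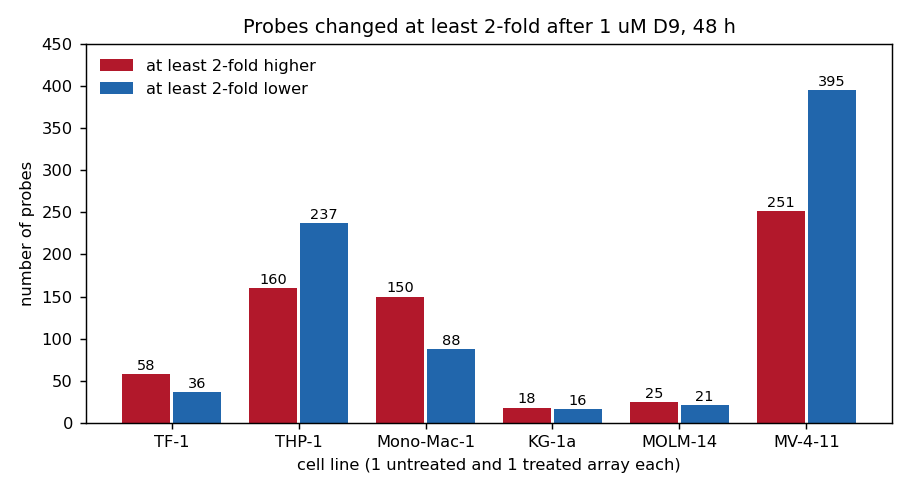
Number of probes (of 28394 tested) changed at least 2-fold after 1 µM D9 in each line, higher in red and lower in blue, from 1 treated and 1 untreated array per line. MV-4-11 has 251 higher and 395 lower, the most of the 6 lines in both directions.

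To ask which changes exceeded the spread between lines, the 6 line changes at 1 µM were fitted together in limma, with MV-4-11 as a group of 1 and the other 5 lines as the other group. MV-4-11 has no replicate, so its standard error (SE) is borrowed from the spread of the other 5 lines, which assumes that it varies like them. The p-values therefore measure spread between lines and not between repeat cultures of MV-4-11. An exact permutation of 1 line against 5 cannot give a p below 0.167 for a single value. At an adjusted p (Benjamini-Hochberg over all tested probes) under 0.10, 399 probes were higher (1.41%) and 487 lower (1.72%) in MV-4-11, with a median size of 1.02 on the log2 scale. On the brightest probe of each of 14337 genes these were 252 higher genes (1.76%) and 323 lower genes (2.25%). With median scaling the calls were 161 higher and 608 lower, and with the authors' log2 values 399 and 816. In the other 5 lines the same fit called 136 probes higher (0.479%) and 137 lower (0.482%), with a median size of 0.51. The change in MV-4-11 differed from the mean of the other 5 lines for 11 probes that were higher (0.0387%) and 14 that were lower (0.0493%), while 2392 had an unadjusted p under 0.05.

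Counts of called genes in the lists below are to be read beside the 1.76% higher and 2.25% lower of all genes. No difference on the lower side was called when TF-1, KG-1a or MOLM-14 was left out, or with median scaling. The count of differences rested on the lines compared. It was 306 without THP-1 and 142 without Mono-Mac-1, and 1 without TF-1 and 2 without KG-1a or without MOLM-14, so the 25 calls are described here by their values. The calls in MV-4-11 itself numbered 2129 without THP-1, 807 without Mono-Mac-1, 588 without MOLM-14, 526 without TF-1 and 525 without KG-1a.

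Of the 15 genes with the largest falls in MV-4-11, 5 were on the list of DNA replication and S phase genes and 4 on that of mitosis and spindle genes, with 6 on neither. CDC20, which activates the anaphase-promoting complex, read 11.54 untreated and 8.94 with D9, a fall by 2.60 ± 0.42 (SE; 6.07-fold; limma, adjusted p = 0.0296). Its change in the other lines was 0.08 (TF-1), 0.71 (THP-1), -0.62 (Mono-Mac-1), -0.75 (KG-1a) and -0.32 (MOLM-14), and the treated MV-4-11 array held the lowest CDC20 level of the 17. ASF1B, a histone chaperone of S phase, fell by 2.42 ± 0.34 (adjusted p = 0.0274) with changes of -1.16 (KG-1a) and -0.86 (Mono-Mac-1). TYMS, the thymidylate synthase that supplies dTMP, went from 11.84 to 9.52 (adjusted p = 0.0473), with changes of -1.20 (Mono-Mac-1) and -1.03 (THP-1). CDK1, the kinase of mitotic entry, fell by 2.07 ± 0.28 (adjusted p = 0.0268) on its brightest probe and by 1.77 on its second probe. The rest of the 15 largest falls were CCNA2, CENPM, CDC45, CCNB2, ZWINT, GINS2, TIMELESS, CDT1, MCM10, UNG and NCAPG, at -2.32 to -1.90 and each called. The call on CDT1 was lost without TF-1, KG-1a or MOLM-14 (adjusted p = 0.107 to 0.122), and that on MCM10 without KG-1a or MOLM-14 (0.120 and 0.124).

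The upstream bases of 5 genes called lower in MV-4-11 are shown because the shares with these short motifs differ between the replication and the mitosis list. They are the 150 bases before the annotated start in RefSeq (GRCh38.p14), 5′ to 3′ on the strand of the gene, with capitals marking TTTGAA (the cell cycle homology region, CHR), CCAAT (NF-Y), TTTGGCGC or TTTCCCGC (E2F) read on either strand.
CDC20 (chr1:43358831-43358980, plus strand): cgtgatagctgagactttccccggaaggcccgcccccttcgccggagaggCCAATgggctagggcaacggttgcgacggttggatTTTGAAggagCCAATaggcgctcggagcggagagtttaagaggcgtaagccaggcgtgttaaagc
CCNB2 (chr15:59104996-59105145, plus strand): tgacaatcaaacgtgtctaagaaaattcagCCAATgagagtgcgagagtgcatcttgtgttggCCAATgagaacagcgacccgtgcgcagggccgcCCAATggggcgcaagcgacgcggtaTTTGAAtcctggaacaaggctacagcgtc
MCM6 (chr2:135876444-135876593, minus strand): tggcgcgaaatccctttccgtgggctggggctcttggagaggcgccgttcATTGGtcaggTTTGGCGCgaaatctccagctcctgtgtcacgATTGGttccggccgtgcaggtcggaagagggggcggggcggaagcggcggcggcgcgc
GINS2 (chr16:85688955-85689104, minus strand): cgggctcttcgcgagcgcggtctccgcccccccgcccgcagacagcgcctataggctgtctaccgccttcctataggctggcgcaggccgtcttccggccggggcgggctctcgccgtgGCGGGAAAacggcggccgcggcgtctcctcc
TYMS (chr18:657503-657652, plus strand): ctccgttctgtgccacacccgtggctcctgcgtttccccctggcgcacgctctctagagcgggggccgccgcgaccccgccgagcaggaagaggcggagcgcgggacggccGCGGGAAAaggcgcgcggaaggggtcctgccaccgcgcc

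Over the 300-base window of the table, from 250 bases before to 50 bases after the start and on either strand, TTTGAA was present in 21 of the 31 mitosis and spindle genes that matched (67.7%) and in 1 of the 34 replication and S phase genes (2.94%). It was present in 15.2% of all 35116 promoters and in 11% of the 11272 tested genes that matched. CCAAT was present in 25 of the 31 mitosis genes, 20 of the 34 replication genes and 34.6% of all promoters. An E2F motif of either form was present in 17 of the 34 replication genes (50%), 1 of the 31 mitosis genes (3.23%) and 2.27% of all promoters. These letters were also common outside the lists with falls. In the MHC class II list CCAAT was present in 9 of 10 promoters and TTTGAA in 40%, and in the histone list in 87.1% and 38.7%. None of these motifs contains another. A match is a description of the letters in the window, and factor binding was not measured. The first entry of each symbol in the table was used.

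Of 37 measured genes of DNA replication and S phase, 36 lay below 0 in MV-4-11 and 28 of them (75.7%, against 1.99% of all genes) were at least 2-fold lower. The median was -1.37, beside 0.00 over all genes tested, and limma called 25 lower and 0 higher. The median of the same genes was -0.74 (Mono-Mac-1), -0.14 (THP-1), -0.09 (KG-1a), -0.06 (MOLM-14) and 0.03 (TF-1). At 5 µM, a dose not measured in MV-4-11, it was -1.08 (Mono-Mac-1), -0.22 (THP-1), -0.18 (KG-1a), -0.14 (MOLM-14) and 0.08 (TF-1). In 35 of the 37 genes MV-4-11 lay below all 5 other lines, as it did in 20.5% of all genes. By role, the licensing factor CDT1 fell by 1.94 ± 0.42 and the helicase loader ORC1 by 1.35. The helicase subunits MCM2, MCM6 and MCM7 fell by 1.41, 1.56 and 1.47, with CDC45 and GINS2, which activate that helicase, at -2.03 and -1.96. POLA2 and PRIM1 of the primase complex fell by 1.71 and 1.59, and both ribonucleotide reductase subunits, RRM1 and RRM2, by 1.40 and 1.79. CDC6 (-0.30), GINS1 (-0.24), PCLAF on its brightest probe (-0.01) and ORC6 (0.13) had adjusted p-values above the threshold.

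All 36 genes of mitosis and the spindle lay below 0 in MV-4-11, with a median of -1.36, and 32 were at least 2-fold lower. Limma called 27 lower and 0 higher, and 5 of them also fell more than in the other 5 lines. Those 5 differences were not called without TF-1, without KG-1a or without MOLM-14. The medians elsewhere were -0.54 (Mono-Mac-1), -0.26 (THP-1), -0.12 (KG-1a), -0.03 (MOLM-14) and 0.14 (TF-1). Among the mitotic kinases AURKB fell by 1.75 and BUB1 by 1.80, and the kinesins KIF2C and KIF20A by 1.83 and 1.46. INCENP, a subunit of the AURKB complex, had a change of -0.66 and was not called. BIRC5, which encodes survivin of the same complex, went from 9.36 to 8.11, a change of -1.24 ± 0.32 with an adjusted p of 0.106, beside changes of 0.32 to 0.75 in 4 of the other lines and -0.34 in KG-1a. A second BIRC5 probe changed by -0.65 in MV-4-11. Its changes elsewhere were 0.12 (TF-1), 0.18 (THP-1), 0.16 (Mono-Mac-1), -0.16 (MOLM-14) and -0.33 (KG-1a). At 5 µM the medians of this list in the other lines were -0.86 (Mono-Mac-1), -0.08 (KG-1a), -0.06 (THP-1), -0.02 (MOLM-14) and 0.19 (TF-1), a dose at which MV-4-11 was not measured. Untreated MV-4-11 cells were within the range of the other lines for this list, with a median level of 9.89 against 9.13 to 10.13, and the level was 8.26 after D9.

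**Figure D2:**
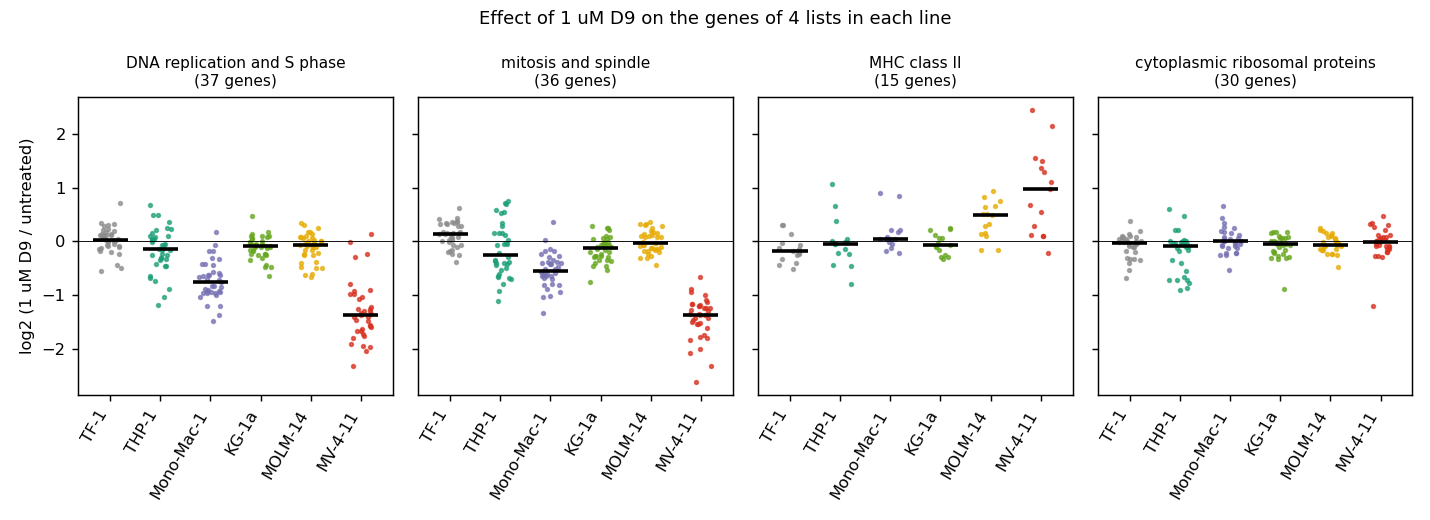
Log2 ratio of 1 µM D9 to untreated for each tested gene of 4 lists (points) and the median of the list (black bar), in each of the 6 lines. The replication and mitosis genes centre on -1.37 and -1.36 in MV-4-11, and the ribosomal protein genes on 0.00.

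Of 23 cyclin, CDK, inhibitor and E2F genes of the G1 phase, 8 were lower and 0 higher by limma, with a median of -0.53. E2F2 fell from 9.25 to 7.40 (1.85 ± 0.25, adjusted p = 0.0268), and CDC25A, CDK2 and E2F7 fell by 1.78, 1.55 and 1.20. FOXM1, which drives mitotic genes, fell by 0.86 and was called, whereas MYBL2 (-0.29) and E2F1 (0.04) were not. CDKN1A, the p21 inhibitor of CDKs and a p53 target, fell from 10.76 to 9.61 (1.15 ± 0.21, adjusted p = 0.0443), while the other inhibitors CDKN1B and CDKN1C had changes of 0.47 and 0.46 that did not pass. Among 17 p53 targets CDKN1A was the single call, and their median was -0.02. Of 14 genes of homologous recombination and Fanconi repair 13 lay below 0, with a median of -1.20 against -0.60 to 0.07 in the other lines. At 5 µM the medians of the other lines were -0.95 (Mono-Mac-1) to 0.01 (TF-1). CHEK1, the S phase checkpoint kinase, fell by 1.82 ± 0.23 (adjusted p = 0.0233) and BRCA1 by 1.45 ± 0.22 (adjusted p = 0.0286). MYC itself read 11.98 and 12.57, a change of 0.58 ± 0.26 (adjusted p = 0.37), and in its network of 10 genes the single call was the MAX partner MXD3, which fell by 1.05.

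**Figure D3:**
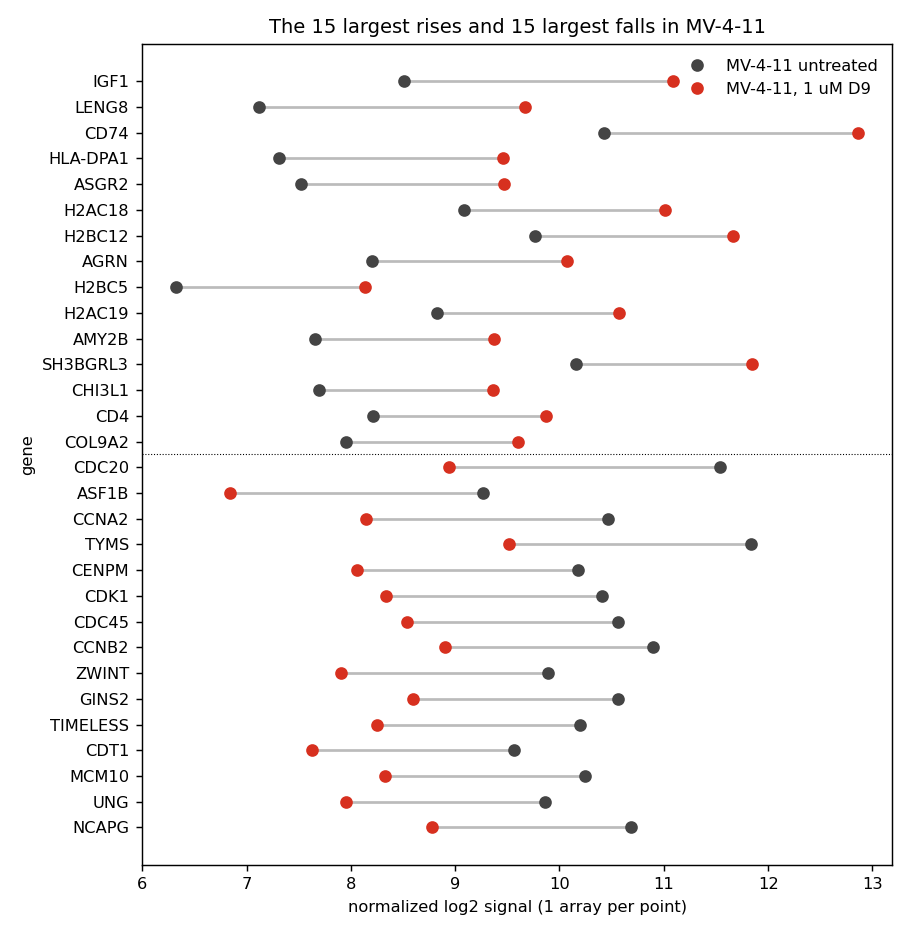
Normalized log2 signal of the 15 genes with the largest rise (above the dotted line) and the 15 with the largest fall (below it) on the untreated (grey) and the treated (red) MV-4-11 array, 1 array per point. IGF1 moves from 8.51 to 11.09 and CDC20 from 11.54 to 8.94.

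IGF1, an insulin-like growth factor, had the largest positive change in MV-4-11. It read 8.51 untreated and 11.09 with D9, a change of 2.58 (5.97-fold), and a second IGF1 probe went from 6.70 to 7.63. On the 15 arrays of the other lines the brightest probe stayed at 5.70 to 6.03, under the level of 6.16 at which probes entered the test, and its changes there were -0.08 to 0.20. Both probes passed the filter through the MV-4-11 arrays alone, their means over the other 15 arrays being 5.85 and 6.11. Their spread in the fit came from arrays at that level, so IGF1 is given as a description with no test, although it is counted among the calls above.

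Among the genes that rose more in MV-4-11 than elsewhere, LENG8 went from 7.12 to 9.67 on its probe, a difference from the other lines of 2.47 ± 0.28 (adjusted p = 0.0583). The proteoglycan genes AGRN (agrin) and SPOCK1 (testican) rose by 1.88 and 1.65, against 0.12 and 0.03 in the mean of the other lines (adjusted p = 0.063 and 0.049 for the differences). STXBP2, which serves granule secretion, rose from 10.28 to 11.88 while its changes elsewhere were -0.15 to 0.39 (adjusted p = 0.0962). KIF17, PPDPF, CSMD3 and PKM, the pyruvate kinase gene, had differences of 1.41, 1.38, 1.32 and 1.19. Beside IGF1, LENG8 and AGRN the 15 largest rises were CD74, HLA-DPA1, ASGR2, H2AC18, H2BC12, H2BC5, H2AC19, AMY2B, SH3BGRL3, CHI3L1, CD4 and COL9A2, at 1.65 to 2.44, of which H2BC12 and H2BC5 were not called and ASGR2 had another probe of opposite sign. Of the 9 genes with a called difference, IGF1 included, 6 lay above the entry level in all 5 other lines.

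On the lower side the 9 genes with a called difference all lay above that level in each of the other lines. CCNA2, the cyclin of S phase and early mitosis, went from 10.46 to 8.14 in MV-4-11 and changed by -0.58 to 0.18 elsewhere, a difference of -2.12 ± 0.26 (adjusted p = 0.0677). CCNB2, a partner of CDK1, had a difference of -1.77 ± 0.24 (adjusted p = 0.0913). UBE2C, which feeds ubiquitin to the anaphase-promoting complex, fell from 11.76 to 9.99 in MV-4-11 with a mean change of 0.00 in the other lines (adjusted p = 0.0913). CENPF, a kinetochore protein, fell by 1.34 in MV-4-11 and changed by 0.03 to 0.54 in the other 5, so the line stood on the opposite side of 0 from each of them. CDCA5, NEK2, CDC25B and RNASEH2A had differences of -1.67, -1.32, -1.31 and -1.31. Of these 9 genes 5 were on the mitosis list and 0 on the replication list. ACTA2, smooth muscle actin, read 8.67 untreated and 6.95 treated, a difference of -1.53 ± 0.19 (adjusted p = 0.0677).

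**Figure D4:**
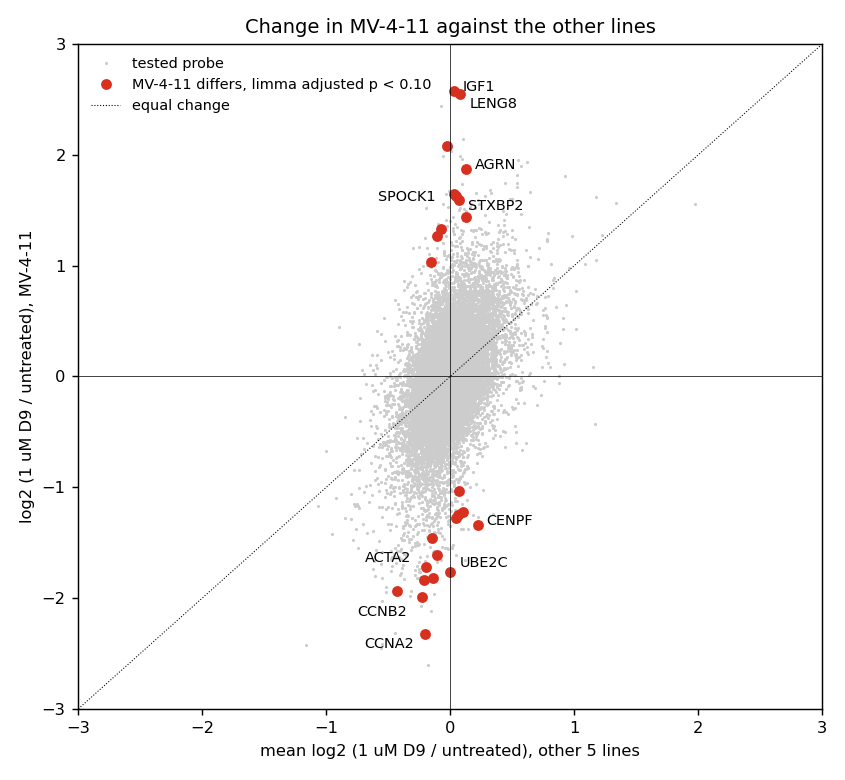
Log2 ratio of 1 µM D9 to untreated in MV-4-11 against the mean of the other 5 lines, 1 grey point per tested probe, with red points for the 25 probes whose change differed between them (limma, adjusted p under 0.10) and a dotted line of equal change. The red points lie near 0 on the horizontal axis, at IGF1 by 0.03 and at UBE2C by 0.00.

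MHC class II was the group with the highest median in MV-4-11. Of 15 measured genes 14 lay above 0, as did 50.1% of all genes, and 7 were at least 2-fold higher (1.1% of all genes). Limma called 6 higher (1.76% of all genes) and 0 lower, with a median of 0.98 beside 0.50 in MOLM-14 and -0.18 to 0.05 in the other 4 lines. CD74 went from 10.43 to 12.86, a rise by 2.44 ± 0.39 (adjusted p = 0.0296), and its other 2 probes rose by 2.08 and 1.67. HLA-DPA1 rose from 7.31 to 9.45 (adjusted p = 0.0377) and HLA-DRA from 9.79 to 11.35 (adjusted p = 0.0844), the latter by 2.04 on a second probe. The call on HLA-DRA was lost without TF-1, Mono-Mac-1 or KG-1a (adjusted p = 0.116 to 0.132). In MOLM-14 the 3 genes had changes of 0.50, 0.93 and 0.76. In TF-1, THP-1 and KG-1a CD74 changed by -0.51, -0.79 and 0.23, and the 2 HLA genes by values between -0.46 and -0.06. The calls on HLA-DRB1, HLA-DRB4 and HLA-DRB6 (1.28 to 1.49) are uncertain as to the gene, since these sequences are nearly alike. CIITA, the activator of class II transcription, had a change of 0.11 and HLA-DPB1 one of -0.21, neither of them called. For the brightest CD74 probe the difference from the other 5 lines had an adjusted p of 0.108, and for a second probe 0.0583. With the median of all probes of a gene in place of the brightest probe, the list's median was 0.68.

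Among class I genes HLA-B rose by 1.15 ± 0.24 (adjusted p = 0.0595), with 3 of 13 genes called higher and a median of 0.28 beside 0.00 to 0.36 elsewhere. Interferon-stimulated genes had 0 calls of 28 by limma, near the 1.76% higher and 2.25% lower of all genes, with 4 higher and 1 lower at an unadjusted p under 0.05. Their median was 0.20 (0.16 to 0.33 over the alternatives), with IFITM1 at 1.25 and IRF1 at -1.41, both with adjusted p-values above 0.10. The T cell coreceptor gene CD4, which monocytes also express, rose from 8.21 to 9.87 (1.66 ± 0.26, adjusted p = 0.0296), with 0.67 (MOLM-14) and 0.41 (Mono-Mac-1). It was the single call of 21 monocyte and macrophage genes, which had a median change of -0.01 in MV-4-11 against 0.40 in MOLM-14. S100A9, an abundant monocyte protein gene, read 7.29 and 6.63 in MV-4-11, beside changes of 1.09 (MOLM-14) and 1.19 (Mono-Mac-1). Of the stem and progenitor markers the receptor gene KIT rose by 1.53 ± 0.21 from 7.47 (adjusted p = 0.0274) and by 1.73 on a second probe. Across the 13 measured genes of KIT's list the changes centred on -0.01, with 6 above 0 and 7 below. ELANE, neutrophil elastase, fell by 0.86 ± 0.18, a call lost without TF-1 or without KG-1a. Other neutrophil granule genes had changes of 0.72 (MPO), 0.30 (AZU1) and -0.45 (RNASE2). The 10 measured genes of that kind also centred on -0.01, with 4 above 0 and 5 below.

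Histone genes moved in both directions, and calls among them are to be read beside the 1.76% higher and 2.25% lower of all genes. H2AC18 rose from 9.08 to 11.01 (adjusted p = 0.0296) and H2AC19 from 8.82 to 10.57 (adjusted p = 0.0355), though near-identical copies share such probes. H2BC12 and H2BC5 had changes of 1.89 and 1.81 with adjusted p-values of 0.109 and 0.231, and Mono-Mac-1 had 1.66 and 2.07 for the same genes. In the opposite direction H2BC9 fell by 1.57, the variant H2AZ1 by 1.16 and H4C3 by 0.95. Of 32 measured histone genes 3 were called higher and 3 lower, with a median of 0.12.

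FLT3, the receptor kinase mutated in this line, read 10.29 untreated and 10.30 treated in MV-4-11 (adjusted p = 0.995), a value whose sign turned under the authors' log2 values and under median scaling. Its change was -0.63 (Mono-Mac-1), -0.57 (MOLM-14) and -0.53 (THP-1), and its level was under 6.16 in TF-1 and KG-1a. Limma called 0 of 12 genes of FLT3 and STAT5 output and 0 of 15 of ERK feedback and output, counts near the 1.76% higher and 2.25% lower of all genes. At an unadjusted p under 0.05 the first list had 2 higher and the second 3 lower. In the first BCL6 was at 1.11 and STAT5A at 0.76. In the second 13 of 15 lay below 0 with a median of -0.23 (-0.43 to -0.20 over the alternatives), EGR1 at -0.92 and DUSP6 at 0.56 on its brightest probe and -0.19 on another. All 8 measured targets of KMT2A fusions lay above 0, as did 50.1% of all genes, with a median of 0.58 against -0.31 to 0.15 in the other lines. The median was 0.31 with median scaling and 0.41 with the authors' log2 values. Limma called RUNX2 (1.04 ± 0.24, adjusted p = 0.0783), whose other probe had a change of -0.12 and whose call was lost without TF-1 (0.133) or MOLM-14 (0.121). MEIS1 read 9.76 and 10.20, a change of 0.44 that did not pass, and HOXA9 was not analysed here.

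EZH2, the methyltransferase of polycomb repressive complex 2, whose protein the parent compound is known to lower, went from 9.09 to 8.45, a change of -0.63 ± 0.19 (adjusted p = 0.168), and its other 2 probes had changes of -0.61 and -0.79. In the other lines it changed by -0.50 to 0.04, and the difference was -0.37 (adjusted p = 0.722). PHF19, an accessory subunit, fell by 0.87 ± 0.17 (adjusted p = 0.0491) as the single call of 10 genes of the complex. AHCY, the hydrolase itself, read 11.48 and 11.40. SUV39H1, which methylates H3K9, fell from 10.52 to 8.84 (1.68 ± 0.25, adjusted p = 0.028) as the single call of 21 histone and DNA methyltransferase genes, and DNMT1 had a change of -0.70 (adjusted p = 0.247). In the methionine cycle MTHFD1 fell by 1.03 and was the single call of 17 genes. CBS, which makes cystathionine, had a change of -1.55, with an adjusted p of 0.257, beside -2.13 for Mono-Mac-1.

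Of 13 pro-apoptotic BCL2 family genes BMF rose from 7.74 to 9.05 (1.31 ± 0.30, adjusted p = 0.0803) and BNIP3L by 1.16 ± 0.28 (adjusted p = 0.0935), with BMF also at 0.93 (Mono-Mac-1) and 0.72 (MOLM-14). Other BMF probes had changes of 0.99 and -0.06, and both calls were lost without KG-1a or MOLM-14 (adjusted p = 0.103 to 0.144), and that on BNIP3L also without TF-1 (0.124). BCL2L11, which encodes BIM, read 6.37 and 6.30, close to the entry level, and its other probes changed by 0.17 and -0.05. MCL1 had a change of 0.22 on its brightest probe, a sign that turned under median scaling, and -0.59 on another, and BCL2L1 had one of 0.80 (adjusted p = 0.104). The 21 lysosome and autophagy genes had a median of 0.13 (-0.02 with median scaling), with 14 above 0 and 7 below. The protease genes CTSD and CTSA among them rose by 1.36 and 1.01, while ULK1 changed by -0.57. All 17 heat shock chaperone genes lay below 0 (49.8% of all genes did), with a median of -0.52 (-0.80 with median scaling), and 1 of them, HSPA1B, was called. HSPA5, the chaperone of the endoplasmic reticulum, rose by 1.27 in MV-4-11, close to the mean rise of the other lines (difference 0.29, adjusted p = 0.906). PHGDH, the first enzyme of serine synthesis, fell from 11.09 to 9.25 (1.85 ± 0.42, adjusted p = 0.0797) and IMPDH2, of guanine nucleotide synthesis, by 1.27, a gene that changed by -0.50 to -1.23 in the other lines. The 30 ribosomal protein genes had a median of 0.00 with 1 call, RPS7 at -1.19, and the 29 respiratory chain genes a median of -0.08.

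The other lines moved with MV-4-11 to different degrees. Of the 395 probes at least 2-fold lower in MV-4-11, 369 (93.4%) were also below 0 in Mono-Mac-1, 78.7% (KG-1a), 69.9% (THP-1), 66.8% (MOLM-14) and 55.4% (TF-1), against 52.6% to 59.2% of all tested probes that shared a sign with MV-4-11. Of these 395 probes, 40 were at least 2-fold lower in Mono-Mac-1, where 88 of all 28394 tested probes were. The same counts were 10 of 16 in KG-1a, 17 of 237 in THP-1 and 5 of 36 in TF-1. In MOLM-14, the other FLT3-ITD line, they were 2 of 21. Of the 251 probes 2-fold higher, 82.5% were above 0 in Mono-Mac-1 and 57.8% in THP-1. Across the 14337 genes, which are not independent replicates, Pearson's r of the MV-4-11 change with that of another line was 0.473 for Mono-Mac-1, 0.366 for KG-1a, 0.262 for TF-1, 0.244 for MOLM-14 and 0.141 for THP-1. MV-4-11 lay below all 5 other lines in 2942 genes (20.5%) and above them in 2713 (18.9%).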

How the data were processed

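RNA from untreated and D9-treated cells was hybridized to Illumina HT-12 V4 arrays, 1 array per line and condition. The authors deposited non-normalized probe intensity values of 47323 probes, without detection p-values, and a log2 table. GenomeStudio is named in the submitters' processing notes. For its version, nothing was given in the sources used here. The log2 table could be rebuilt within 0.000614 as log2 intensity minus the array's 75th percentile minus the probe's median. Its medians were -0.00668 and 0.0441 on the MV-4-11 arrays.

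The intensities were background-corrected (normexp, offset 50) and quantile-normalized over the 17 arrays, and the 28394 probes with a mean above the 40th percentile (log2 6.16) were tested. The array annotation gave 30113 probes 1 gene symbol, 8 several and 17202 none, and 30074 symbols matched RefSeq. For each of 14337 genes the brightest tested probe was used. The 1 µM minus untreated log2 values of the 6 lines were fitted with limma 3.58.1 (R 4.3.3), MV-4-11 against 0 and against the mean of the other 5 lines, with Benjamini-Hochberg adjusted p under 0.10 as the threshold. Residual degrees of freedom were 4 and prior ones 4.82. The code was tested on simulated data. No chip or batch is named in the labels. Precision is limited by how few arrays there were.

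Named genes were the 15 largest rises and 15 largest falls on probes above the array's median, up to 10 called differences in each direction, 10 genes fixed by name, and up to 4 members of each of 39 lists. The members and lists were chosen with earlier results of these data known. Alternatives were the authors' log2 values, a floor of 30 without background correction, median scaling, offset 16, no filter and a 60th percentile filter. Other thresholds, other fits and leaving out each line were also used. The t-test among these fits is the one the study's methods name for its statistics in general. For its arrays the study reported Significance Analysis of Microarrays (SAM), which was not run here.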

Additional observations from a re-analysis of the deposited data

Results flagged for a closer look

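Of 92 sets of 6 line values examined, 52 genes and 39 lists among them, 20 had 1 line far from the rest by Dixon's criterion. Chance meets it in about 1 of 20 sets, but that rate does not apply to genes chosen for their change in MV-4-11. In 19 cases the line was MV-4-11, and all 19 were single genes chosen in that way, while 0 of the 39 lists had MV-4-11 far from the rest. They were IGF1 (2.58), LENG8 (2.55), AGRN (1.88), SPOCK1 (1.65), STXBP2 (1.60), CSMD3 (1.44), KIF17 (1.33), PPDPF (1.26) and PKM (1.04) on the higher side. On the lower side were CCNA2 (-2.32), CDK1 (-2.07), CCNB2 (-2.00), CDCA5 (-1.82), UBE2C (-1.77), ACTA2 (-1.72), RNASEH2A (-1.46), CENPF (-1.34), NEK2 (-1.27) and CDC25B (-1.25). The remaining case was the median of the stem and progenitor markers, at 0.24 in THP-1.

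The change in MV-4-11 differed from that of the other 5 lines by limma's test of the difference for 18 genes, of which IGF1 is a description only, since its probe was at background in the other lines. The differences on the log2 scale were 2.55 for IGF1, 2.47 for LENG8, 1.75 for AGRN, 1.61 for SPOCK1, 1.53 for STXBP2, 1.41 for KIF17, 1.38 for PPDPF, 1.32 for CSMD3 and 1.19 for PKM. They were -2.12 for CCNA2, -1.77 for CCNB2, -1.77 for UBE2C, -1.67 for CDCA5, -1.56 for CENPF, -1.53 for ACTA2, -1.32 for NEK2, -1.31 for CDC25B and -1.31 for RNASEH2A.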

How the results depend on the processing

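Counts of called probes are given as MV-4-11 against 0, the difference from the other 5 lines, and the other 5 lines, and were 886, 25 and 273. They were 1215, 184 and 425 with the authors' log2 values, 946, 119 and 448 without background correction, 769, 1 and 87 with median scaling, 902, 99 and 567 with offset 16, and 879, 59 and 333 without a filter. At an adjusted p under 0.05 they were 381, 3 and 42. A fit of all 17 arrays with the cell line as block gave 1365, 216 and 734, and a fit without pairing by line 1, 1 and 0. The methods' t-test gave 3264, 2179 and 2769 probes at an unadjusted p under 0.05 and 0, 0 and 0 after Benjamini-Hochberg, and a variance trend gave 358, 13 and 0. Leaving out 1 line gave 525 to 2129, 1 to 306 and 0 to 677. Probes past 2-fold in MV-4-11 numbered 646, and 1069 with offset 16, 2694 past 1.5-fold and 103 past 3-fold. Of the called probes 45% were higher, against 32.8% with the authors' log2 values and 20.9% with median scaling, which placed the median of all genes at -0.07.

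Medians turned below 0 under median scaling for anti-apoptotic genes (-0.0441), FLT3 and STAT5 output (-0.0141) and lysosome and autophagy (-0.0210), and the change of IMPDH1 turned to 0.0143 as the median of its probes. In all, 10 of 39 list medians changed sign or reached 0 under at least 1 alternative, among them the MYC network (0.0198, and -0.0650 with median scaling) and cytokine receptors (0.0129, and -0.0815). The cause was not tested. Of 273 list medians under alternatives 225 moved by less than the spread. Of 1294 values of named genes 1219 were classed as unchanged. That class includes sign changes of genes not called under either setting, such as FLT3 and MCL1. For the median over all probes of a gene the side of the threshold was not compared. Of 78 named genes called in MV-4-11, 20 lost the call without 1 line (TF-1, Mono-Mac-1, KG-1a or MOLM-14), at adjusted p-values of 0.101 to 0.15. They were BMF, BNIP3L, CDT1, CHI3L1, ELANE, HLA-B, HLA-DRA, HLA-G, HSP90B1, HSPA1B, HSPA5, IMPDH2, MCM10, MTHFD1, PHGDH, RUNX2, SDHA, SLC7A5, TRIB3 and TXNIP. No paired analysis by replicate number was possible because the groups share fewer than 2 replicate numbers.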

Other observations

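Several smaller groups in MV-4-11 are given here as values by limma with Benjamini-Hochberg adjustment. Among 16 leukocyte integrin genes ITGB7, the beta chain of the gut-homing integrin, was the single call and rose from 8.69 to 10.29 (1.60 ± 0.29, adjusted p = 0.0433). Of 18 genes of the ATF4 response, which serves amino acid supply, 3 fell, with PHGDH by 1.85, the amino acid transporter gene SLC7A5 by 1.35 and TRIB3 by 0.87. Of 16 FOXO targets TXNIP, an inhibitor of thioredoxin, rose by 1.05 ± 0.24 (adjusted p = 0.0803) and SOD2, the mitochondrial superoxide dismutase, fell by 0.93 ± 0.18 (adjusted p = 0.0497). Of 23 proteasome genes 22 lay below 0, as did 49.8% of all genes, and PSMD2 was the single call. Their median was -0.36, and -0.67 with median scaling and -0.59 with the authors' log2 values. The tubulin gene TUBB, listed as a housekeeping gene, fell from 13.08 to 11.56 (adjusted p = 0.0233).

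Of 21 genes of cholesterol and fatty acid synthesis limma called 0, near the 1.76% higher and 2.25% lower of all genes, with 5 lower at an unadjusted p under 0.05. Their median in MV-4-11 was -0.26, and -0.55 with median scaling and -0.47 with the authors' log2 values. In the main setting it was lower in Mono-Mac-1 (-0.60) and MOLM-14 (-0.36), and -0.003 to 0.05 in TF-1, KG-1a and THP-1.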
